A study of Danio rerio with 8 samples.

Results

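The transcripts described here are those enriched in the animal pole ectoderm of zebrafish embryos relative to lateral ectoderm. They were chosen by their estimated reads scaled to the library's total (CPM). A transcript was included when its lowest value in the 4 animal libraries exceeded its highest value in the 4 lateral libraries, its mean animal CPM was at least 10, and that mean was at least 2 times the mean lateral CPM. This gave 47 of 57192 listed transcripts, or 0.735% of the 6397 transcripts with a mean animal CPM of at least 10. The same values chose the transcripts and are given for them below, so the difference between the regions is a description and is not tested.

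RNA was sequenced from 2 regions of the ectoderm at 7.5 hours post fertilization, in 4 libraries per region. All embryos were Tg(Sebox::eGFP) embryos labelled WT, and all had received 125 pg of mRNA for PAmCherry1, a red fluorescent protein that light can switch on, at the 1-cell stage. From 6 hours onward a block of 444 by 220 by 58.5 µm was switched on with a 405 nm laser, at the animal pole for animal ectoderm and on the side of the embryo for lateral ectoderm. The embryos were dissociated and 5000 fluorescent cells were sorted per library. All 8 libraries therefore share the transgene, the injection, the laser treatment and the sort. Cells were chosen by the position of the lit block and not by a cell type marker, and the labels do not give the position of the lateral block along the dorsal to ventral axis.

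Ectoderm, the outermost of the germ layers, forms the epidermis, the nervous system and the neural crest. At the onset of gastrulation its cells are still being assigned these fates, and bone morphogenetic proteins (BMPs) secreted on the ventral side, with their inhibitors from the dorsal organizer, set a graded signal across it. The study relates this signal to the material properties of the tissue. A gene usually gives rise to several transcripts that share exons, and a short read from a shared exon does not say which transcript it came from. The files name Ensembl transcripts, and matching their 57192 identifiers to the available tables of gene symbols gave 0 matches. Gene names, positions, sequences and pathway lists are therefore not given, the tissue labels could not be checked against marker genes, and transcripts other than 2 are named by their length in nucleotides.

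Total estimated reads ran from 2439220 to 3807571 per animal library and from 1720408 to 2810129 per lateral library, so that 10 CPM stands for 17.2 reads in the shallowest library and 38.1 in the deepest. The labels list replicates as separate samples without saying whether their embryos came from different clutches, so p-values measure only the spread between these samples. In bulk samples fewer cells of a type and less RNA per cell cannot be told apart.

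The 47 transcripts together held 3414 ± 378 CPM (SD, n = 4) in animal ectoderm and 1047 ± 237 CPM (SD, n = 4) in lateral ectoderm. These sums are 0.341% and 0.105% of all reads. By library the summed level was 3032, 3426, 3273 and 3925 CPM in animal replicates 1 to 4, and 939.6, 1264, 1219.8 and 764 CPM in lateral replicates 1 to 4. Animal replicate 4 stood highest and lateral replicate 4 lowest. The summed level was uneven over transcripts, with 20.9% of the animal sum in the most abundant transcript and 70.3% in the 10 most abundant. Without the most abundant transcript the animal sum was 2702 ± 312 CPM and the lateral sum 840.2 ± 194 CPM (SD, n = 4).

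**Figure D1:**
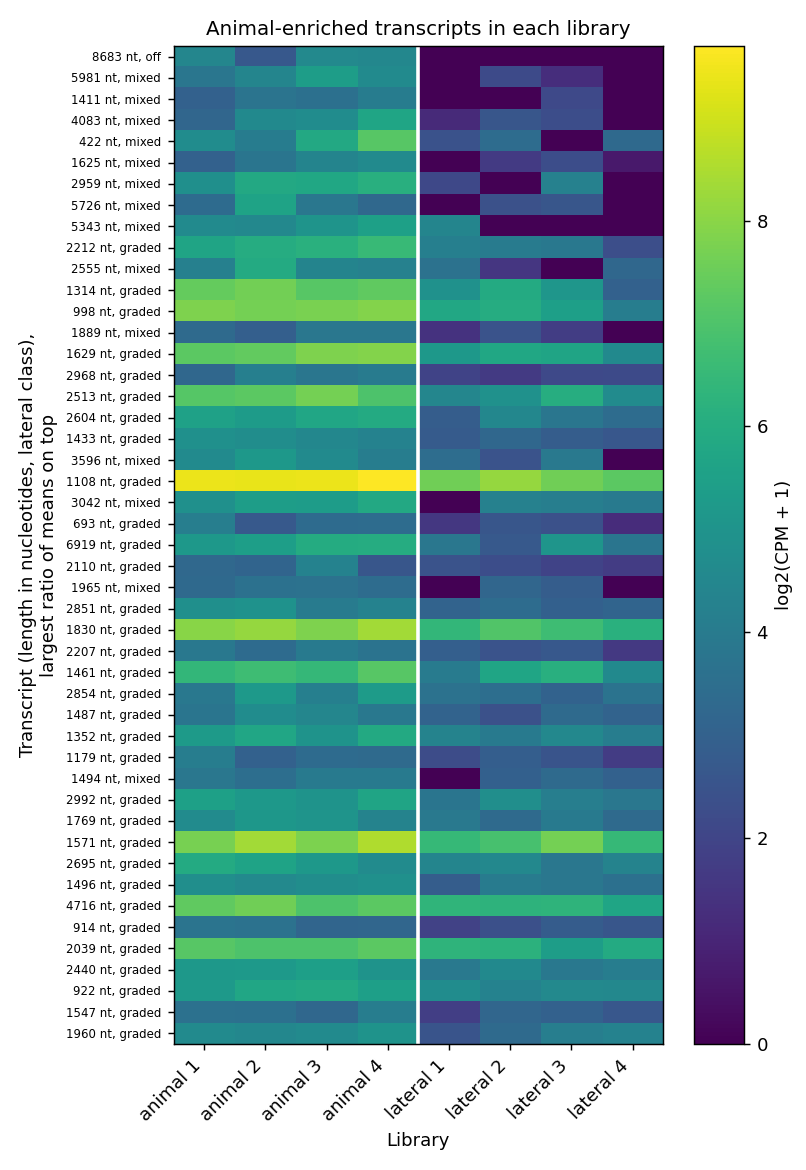
Level of each of the 47 animal-enriched transcripts (rows, named by length in nucleotides and by class in lateral ectoderm, largest ratio of means on top) in each of the 8 libraries (columns), as log2(CPM + 1). All values left of the white line exceed those to its right in the same row, as the choice of transcripts requires, and the darkest cells, at or near 0 CPM, lie in lateral libraries.

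Most of the 47 transcripts were graded between the regions and not on in the one and off in the other. A transcript was called off in lateral ectoderm when every lateral library was below 1 CPM, graded when every lateral library was at 1 CPM or above, and mixed otherwise. Of the 47, 1 was off, 14 were mixed and 32 were graded. The ratio of mean animal to mean lateral CPM was from 2 to 3 in 23 transcripts, from 3 to 5 in 12, from 5 to 10 in 7 and above 10 in 5, with a median of 3.18. Graded transcripts had a median ratio of 2.60 and reached 5.41. Mixed transcripts had a median ratio of 7.30 and reached 19.7.

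Since the classes are set by lateral CPM, which is also the denominator of the ratio, a larger ratio and fewer very abundant transcripts in the mixed class follow in large part from its definition. Graded transcripts carried 3025 of the 3414 CPM in animal ectoderm, mixed ones 371 CPM and the off transcript 17.6 CPM. All 10 transcripts above 100 CPM in animal ectoderm were graded, and no mixed transcript exceeded a mean of 60.7 CPM. In lateral ectoderm 23 of the 47 still had a mean of at least 10 CPM, and 4 had a mean below 2 CPM.

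**Figure D2:**
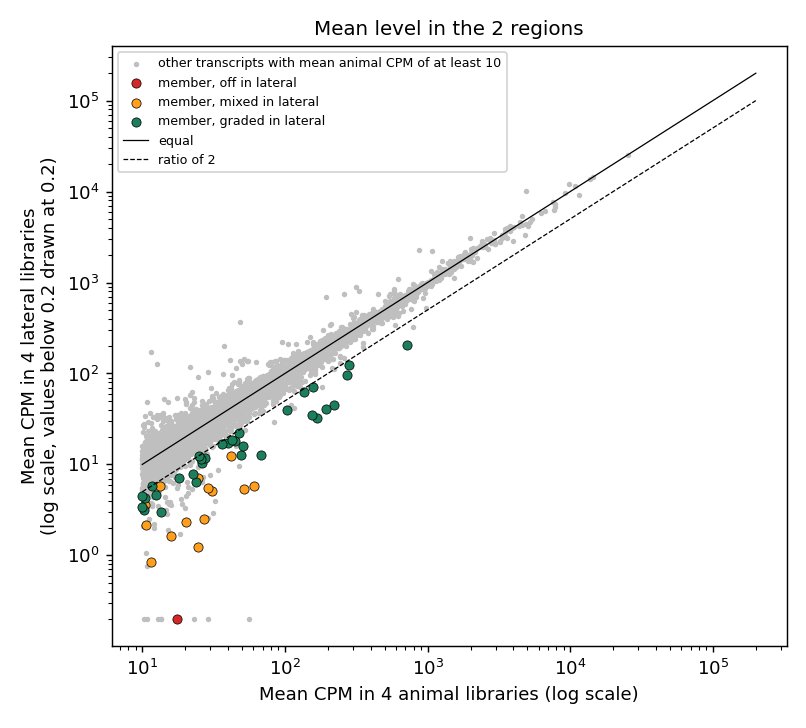
Mean CPM in the 4 lateral libraries against mean CPM in the 4 animal libraries, both on log scales, for transcripts with a mean animal CPM of at least 10. Coloured points are the 47 animal-enriched transcripts by class, grey points are all others, the solid line marks equal levels and the dashed line a ratio of 2. Mixed transcripts all lie at or below 60.7 CPM in animal ectoderm, and grey points below the dashed line are transcripts whose regions overlapped.

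The most abundant transcript, ENSDART00000045574.5, is 1108 nucleotides long. It stood at 674, 659, 688 and 828 CPM in animal replicates 1 to 4 and at 192, 289, 195 and 152 CPM in lateral replicates 1 to 4. Every animal library was at least 2.28 times every lateral library. The animal mean was 712 ± 78.4 CPM and the lateral mean 207 ± 58.0 CPM (SD, n = 4), a ratio of 3.45. These values rest on 9050 reads in animal and 1938 reads in lateral ectoderm, all of them whole-number estimates. No fraction shows division with another transcript, though whole numbers do not prove that every read fitted this one alone. Per length, in TPM, where reads are divided by the effective length of the transcript before scaling, it was also the highest of the 47, at 799 ± 75.3 TPM in animal libraries and 229 ± 59.6 TPM in lateral ones (SD, n = 4).

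The next most abundant graded transcript was 1571 nucleotides long, and its regions barely parted. It stood at 208, 328, 217 and 376 CPM in the animal libraries and at 88.6, 116, 205 and 89.5 CPM in the lateral libraries. Lateral replicate 3 came within 1.02 times of the lowest animal library, although the transcript had 793 reads or more in every animal library. Its ratio of means was 2.26. A graded transcript of 1830 nucleotides stood at 249.8, 286, 225 and 323 CPM in animal and at 83.6, 133, 102 and 70.3 CPM in lateral libraries. Its regions lay further apart, with a lowest animal value 1.69 times the highest lateral value and a ratio of means of 2.78.

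The largest ratios among graded transcripts belonged to transcripts of 2212, 1314 and 998 nucleotides. The first stood at 49.1, 62.3, 70.2 and 90.6 CPM in animal and at 17.1, 15.5, 13.7 and 4.07 CPM in lateral libraries, a ratio of 5.41. The second stood at 169, 196, 143 and 159 CPM in animal and at 29.1, 59.8, 33.1 and 6.98 CPM in lateral libraries, a ratio of 5.16. In both, lateral replicate 4 was lowest by far, with 7 and 12 reads. The third, of 998 nucleotides, stood at 227, 203, 215 and 237 CPM in animal libraries, where its coefficient of variation of 6.77% was the smallest of the 47. In lateral libraries it stood at 55.2, 63.6, 43.7 and 16.3 CPM, again lowest in replicate 4, and its ratio was 4.93. Without lateral replicate 4 the ratios of the transcripts of 1314 and 998 nucleotides were 4.09 and 4.07.

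**Figure D3:**
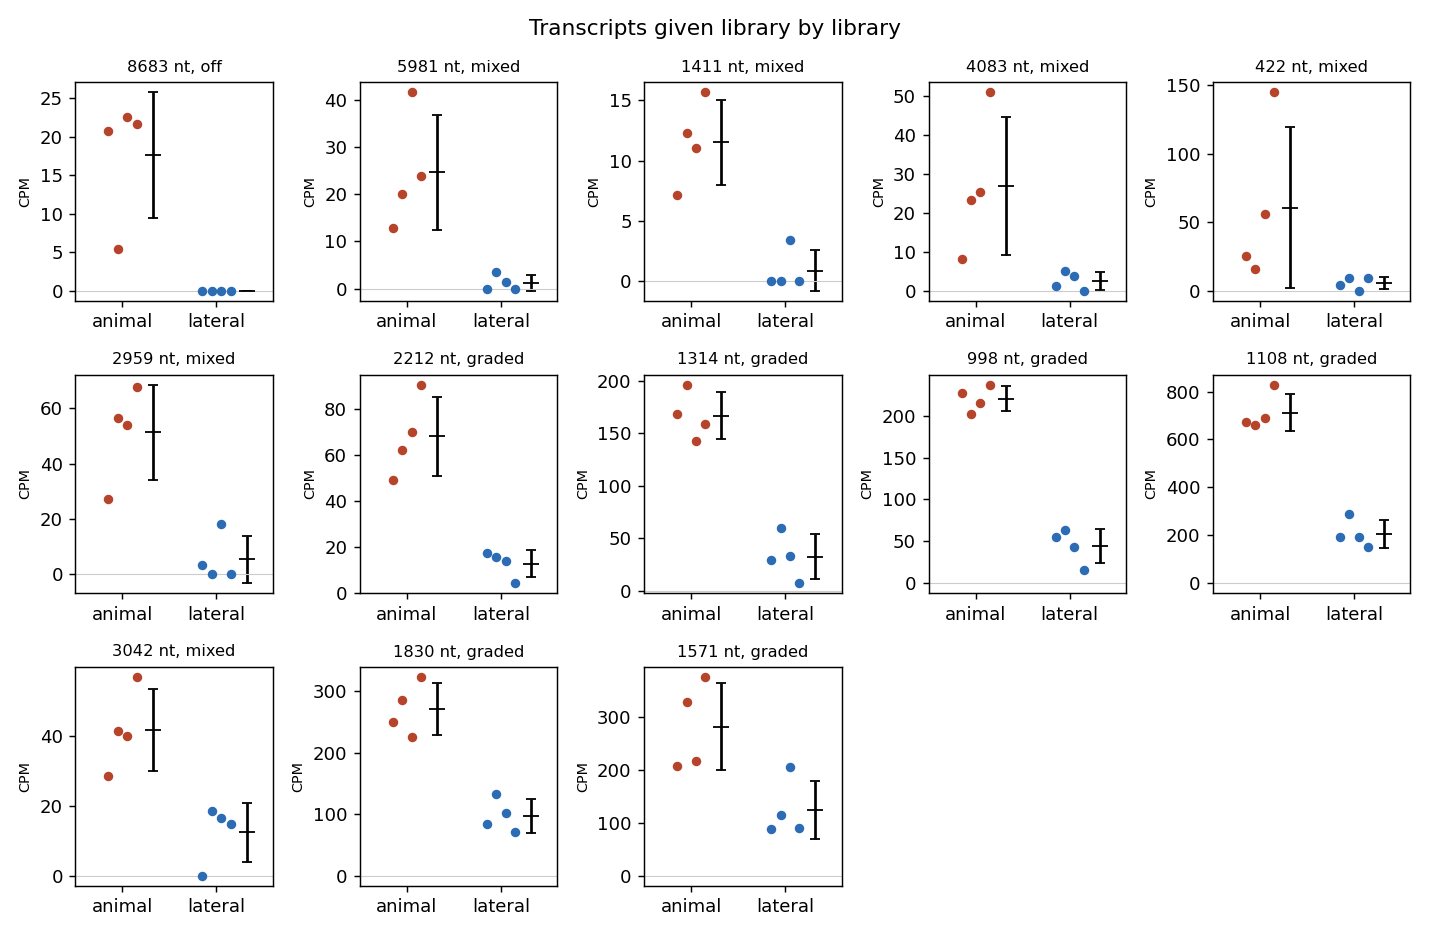
CPM in each library for the 13 transcripts given library by library, named by length in nucleotides and class; points run from replicate 1 to 4 within a region, and the black bar beside them is the mean ± SD of 4 libraries. The graded transcripts shown keep reads in every lateral library, while the mixed ones have lateral libraries at 0 CPM beside libraries with reads.

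The only off transcript was ENSDART00000105286.5, of 8683 nucleotides, the longest of the 47. It was listed at 0 reads in all 4 lateral libraries, and it stood at 20.8, 5.37, 22.5 and 21.7 CPM in animal replicates 1 to 4. Animal replicate 2 was therefore far below the other 3. The mean was 17.6 ± 8.18 CPM (SD, n = 4) in animal ectoderm. This mean is 52.9 times a floor of 3 reads over the lateral group, a chosen floor that covers counting error only. Its 4 animal estimates included fractions of a read, so its reads had been divided with similar transcripts, and a listed 0 can result from that division. Per length it was the lowest of the 47, at 1.46 ± 0.67 TPM (SD, n = 4).

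Transcripts listed at 0 in every lateral library were 9 in all at this abundance, and the other 8 failed the rule because at least 1 animal library was at 0 too. Of these 8, 1 had reads in a single animal library, 4 in 2 animal libraries and 3 in 3 animal libraries. All 8 had divided reads, and they reached a mean of 55.7 CPM. A listed 0 among abundant transcripts thus also occurred within the animal group.

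Mixed transcripts with the largest ratios were low in both regions. A transcript of 5981 nucleotides stood at 12.9, 20.1, 41.6 and 23.9 CPM in animal and at 0, 3.56, 1.44 and 0 CPM in lateral libraries. Its ratio of means was 19.7 and rested on 13 lateral reads, 10 of them in replicate 2. Without lateral replicate 2 the ratio was 50.9, when the floor of 3 reads stands in for the lateral group. A transcript of 1411 nucleotides, with whole-number reads, stood at 7.09, 12.3, 11.04 and 15.7 CPM in animal libraries. In lateral ectoderm it had 7 reads in replicate 3 and 0 in the other libraries. Its ratio was 13.7, and 26.7 without lateral replicate 3, when the floor of 3 reads stands in for the lateral group. A transcript of 4083 nucleotides, also with whole-number reads, stood at 8.14, 23.4, 25.3 and 51.0 CPM in animal and at 1.25, 4.98, 3.84 and 0 CPM in lateral libraries, a ratio of 10.7. Its animal libraries alone varied 6.26-fold.

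More abundant mixed transcripts had single libraries apart from the others of their region. None of these libraries exceeded the limit for outliers used further below. The shortest of the 47, at 422 nucleotides, stood at 25.5, 16.0, 56.0 and 145 CPM in animal and at 4.41, 9.65, 0 and 9.03 CPM in lateral libraries. Its animal values varied 9.07-fold, the widest range of the 47, and its ratio of 10.5 was 5.64 without animal replicate 4. A transcript of 2959 nucleotides stood at 27.2, 56.5, 53.9 and 67.8 CPM in animal and at 3.33, 0, 18.1 and 0 CPM in lateral libraries, a ratio of 9.59 that was 46.3 without lateral replicate 3. A transcript of 3042 nucleotides stood at 28.4, 41.4, 39.97 and 56.7 CPM in animal libraries and at 0, 18.4, 16.6 and 14.9 CPM in lateral libraries. Only lateral replicate 1 was at 0 there, so the mixed class includes transcripts that most lateral libraries contained. All 3 of these transcripts had divided reads.

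A lateral library at 0 occurred in 15 of the 47 transcripts, in 11 of the 32 with divided reads and in 4 of the 15 with whole-number reads. In 8 transcripts a single lateral library was at 0, in 4 there were 2, in 2 there were 3, and in 1 all 4 were. Lateral replicate 4, the shallowest library, was at 0 for 10 transcripts, replicate 1 for 8, and replicates 2 and 3 for 4 each. The part of depth and of read division in these zeros was not tested. Of all 6397 transcripts with a mean animal CPM of at least 10, 4.11% had a lateral library at 0, a share that the choice of low lateral values raises among the 47.

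Whole-number estimates in all 8 libraries were found for 15 of the 47 transcripts, or 31.9%, beside 32.3% of the 6397. Fractional estimates, which mark divided reads, were therefore about as common among the animal-enriched transcripts as among others of this abundance. The 15 summed to 1458 ± 191 CPM in animal libraries and to 503 ± 100.8 CPM in lateral ones (SD, n = 4), a ratio of 2.90 against 3.26 for all 47. Of the 15, 11 were graded and 4 mixed.

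Lengths were like those of other transcripts, with a median of 1965 nucleotides among the 47 and 1997 among the 6397. Mean animal abundance had a median of 27.4 CPM against 34.2 CPM. The coefficient of variation among animal libraries had a median of 27.9% for the 47 and 23.0% for the 6397, and among lateral libraries 45.1% and 26.2%. The lateral figure is taken at the low lateral levels that the rule selects. Spread beyond counting error, as chi-square per degree of freedom of reads against library totals, had a median of 8.77 for the 47 and 6.99 for the 6397 among animal libraries. Among lateral libraries it was 5.31 and 6.14. The 47 had a median mean lateral level of 7.94 CPM against 33.9 CPM, so these chi-square values stand at unlike read numbers. The lateral coefficient of variation and the lateral chi-square leave out transcripts with no lateral reads. Within the 47 the animal coefficient of variation had a median of 16.7% in the 10 transcripts above 100 CPM, 28.8% in the 23 from 20 to 100 CPM and 31.1% in the 14 below 20 CPM. More deeply read transcripts thus had the smaller coefficients of variation between animal libraries, a measure that counting error raises at low read numbers. Their animal chi-square per degree of freedom ran the other way, with medians of 21.8, 10.65 and 3.67 in the same order of abundance.

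On a per-length scale, TPM, all 47 transcripts kept the animal libraries above the lateral ones and a ratio of means of at least 2. TPM is made from the same estimated reads as the CPM that chose the transcripts. This outcome was therefore largely fixed in advance and adds no separate support. Their mean animal level had a median of 12.5 TPM and ran from 1.46 to 799 TPM. Behind the transcript of 1108 nucleotides, the transcript of 998 nucleotides stood at 243 ± 15.7 TPM (SD, n = 4) and that of 422 nucleotides at 229 ± 223 TPM (SD, n = 4). The spread of the last is nearly its mean, so its place in this order is uncertain. The transcript of 1571 nucleotides followed at 181 ± 50.7 TPM and that of 1314 nucleotides at 136 ± 21.1 TPM (SD, n = 4), which differ by less than the larger of their SDs. Of the 47, 18 were below 10 TPM in animal ectoderm.

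The gap between the regions was often small. The lowest animal value was less than 1.2 times the highest lateral value in 14 transcripts and more than 2 times in 10, counting the off transcript, with a median of 1.47 over the 46 transcripts with lateral reads. Exact Poisson 95% limits, which cover counting error only, were computed for the lowest animal and the highest lateral library. These limits lay apart in 13 of the 47 transcripts and overlapped in 34. The lowest animal library held a median of 467 reads in the 13 and of 50 reads in the 34. The transcript of 1571 nucleotides was among the 34 in spite of its depth, and that of 5981 nucleotides was among the 13 with few reads and a wide gap.

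**Figure D4:**
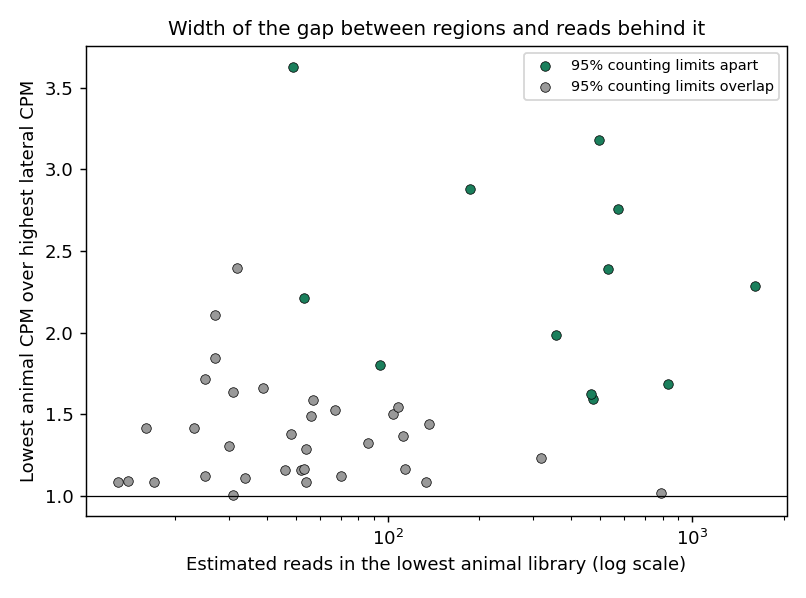
Lowest animal CPM over highest lateral CPM against the estimated reads in the lowest animal library (log scale), for the 46 transcripts with lateral reads; green points have exact Poisson 95% limits that lie apart in these 2 libraries and grey points have limits that overlap. The widest gaps, above 2.5, belong to 4 green points, and most grey points have fewer than 150 reads in the lowest animal library.

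Values near the thresholds differed little across them. The transcripts just inside the ratio of 2 had ratios of 2.01 and 2.04, and those just outside, separated and abundant enough, had 1.99 and 1.97. Just inside the abundance threshold stood mean animal values of 10.008 and 10.01 CPM, and just outside 9.63 and 9.40 CPM. Just inside complete separation, the lowest animal value was 1.01 and 1.02 times the highest lateral value, and just outside it was 0.965 and 0.961 times. Of the 163 transcripts with a mean animal CPM of at least 10 and a ratio of at least 2, 116 were left out because libraries of the regions overlapped. Another 166 transcripts were separated with a ratio of at least 2 but had a mean animal CPM below 10. Complete separation in this direction occurred in 170 of the 6397 transcripts, or 2.66%, and 123 of these had a ratio below 2.

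Over the whole table the quasi-likelihood test of edgeR called 9 of 9694 transcripts higher in animal ectoderm, or 0.0928%, at a Benjamini-Hochberg adjusted p of 0.05. All 9 were among the 47, all 47 of which passed the filter on low counts. Since the rule used the same contrast, nothing is read from this overlap. The 9 were the off transcript and 8 graded ones, and no mixed transcript was called. All 9 had counting limits that lay apart, but these limits come from the same libraries and values as the rule and the test. They add no separate support. Among the 47 the fitted log2 fold change of animal over lateral had a median of 1.67, against a median of 0.0003 over all tested transcripts. The rule's ratio of at least 2 fixes a high median in advance, so nothing is read from this difference either. The median standard error, derived from the fold change and the test's F statistic, was 0.43 in the 47 and 0.38 over all. DESeq2 called 33 of 12459 transcripts higher in animal ectoderm, or 0.265%, and 21 of these belonged to the 47. In limma voom 8 of 9694 were called, or 0.0825%, all 8 within the 47. In edgeR with no filter on low counts 113 of 30850 were called, or 0.366%, 30 of them within the 47. A block for the replicate number left 1 call in edgeR, and without animal replicates 1, 3 and 4 it called 4, 4 and 3 transcripts, of which 4, 3 and 2 were among the 47.

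The highest library within each region was also counted. These counts come from the same CPM values as the choice of transcripts. That choice used the lowest animal value, the highest lateral value and both means, without regard to the replicate that held them. Its limits on these values can still shift which library is highest. The shares over all transcripts of this abundance are therefore not a like comparison. In animal ectoderm 24 of the 47, or 51.1%, were highest in replicate 4, and 5, or 10.6%, were highest in replicate 1. Among all 6397 transcripts of this abundance these shares were 21.7% and 25.1%. The share for replicate 4 was 7 of 10 among transcripts above 100 CPM, 13 of 23 from 20 to 100 CPM and 4 of 14 below 20 CPM, where 5 of 14 were highest in replicate 3. Among transcripts with whole-number reads 9 of 15 were highest there. Animal replicate 4 held 2805266 reads, and animal replicates 1 to 3 held 3807571, 2439220 and 3712857. The part of depth in these shares was not tested.

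In lateral ectoderm 21 of the 46 transcripts with lateral reads, or 45.7%, were highest in replicate 2 and 14, or 30.4%, in replicate 3. Only 3, or 6.52%, were highest in replicate 4. Among the 6388 transcripts of this abundance with lateral reads the shares were 23.5%, 21.1% and 25.6%. Replicate 4 alone was lowest for 15 of the 46, or 32.6%, beside 27.1% of the 6388. By abundance it was lowest for 6 of 10 transcripts above 100 CPM, 4 of 23 from 20 to 100 CPM and 5 of 13 below 20 CPM. Replicate 4 had the fewest reads of the lateral libraries and replicate 2 the most, and the part of depth in these shares was not tested. Transcripts share their libraries and are not independent, so these shares describe the 8 libraries and carry no test.

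The same rule with the regions exchanged gave 88 transcripts enriched in lateral ectoderm, of 6496 with a mean lateral CPM of at least 10. Of these, 37, or 42.0%, were highest in lateral replicate 4 and 7, or 7.95%, in lateral replicate 2. In animal ectoderm 18.2% of them were highest in replicate 4. The 88 had a median mean animal CPM of 6.46, below the 34.2 CPM of the 6397. In lateral ectoderm the medians lay closer, at 27.5 and 33.9 CPM. The 6397 were chosen by their animal level, so their shares are no background for the 88.

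**Figure D5:**
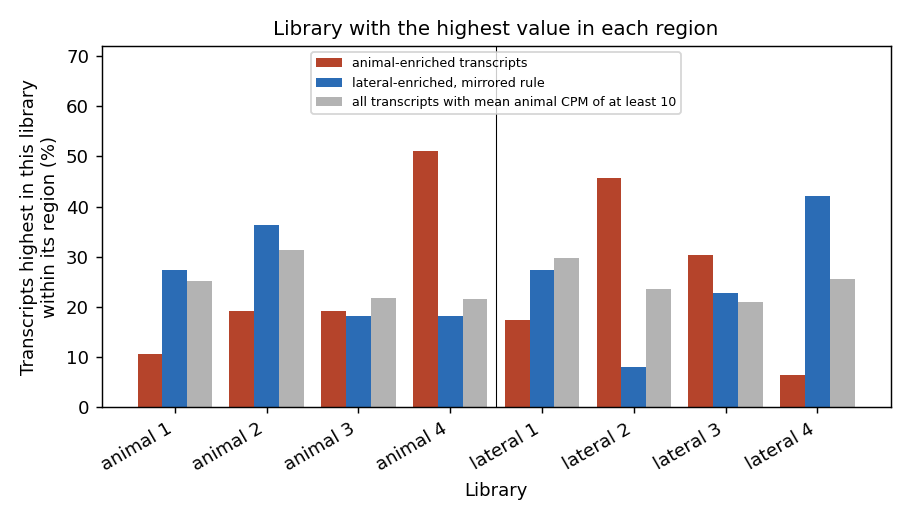
Share of transcripts (%) whose highest value within a region fell in each library, for the 47 animal-enriched transcripts (red; 46 with reads in the lateral panel), the 88 transcripts enriched in lateral ectoderm by the mirrored rule (blue), and all transcripts with a mean animal CPM of at least 10 (grey; 6397, and 6388 in the lateral panel), which are more abundant in animal ectoderm than the 88. Red bars are tallest in animal replicate 4 (51.1%) and lateral replicate 2 (45.7%) and lowest in lateral replicate 4 (6.52%), where the blue bar is tallest (42.0%). In lateral ectoderm the grey set stood higher than the red, with a median mean lateral CPM of 33.9 over the 6397 and 7.94 over the 47. The grey set was chosen by animal level only, so its bars are no like background for the red or blue ones.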

How the data were processed

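Per the labels' protocols, RNA from sorted cells was made into SMART-Seq v3 libraries and read in pairs of 150 bases. The submitters' processing notes name Salmon, Trimmomatic, FastQC and DESeq2 and the build GRCz11. Their versions and settings, and the release of the annotation, are not given in the sources consulted. Each deposited file holds unscaled estimated counts and TPM values for every transcript. The deposited TPM values rest on effective lengths that vary between libraries. Replicates were not pooled. Salmon divides reads that fit several transcripts, and that uncertainty is not in the values.

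The members, classes and comparisons were chosen with earlier results of these data known. CPM is the estimated count over the library's total. Whole-number estimates are integers, to all decimals the files give, in every library. Estimated counts were rounded, filtered with filterByExpr (minimum count 10, minimum total 15), scaled by TMM and fitted in R 4.3.3 with edgeR 4.0.16 (glmQLFit, glmQLFTest), with region as the only term. Alternatives were DESeq2 1.42.0, limma voom 3.58.1, other scalings, thresholds and filters, TPM, the replicate block and leaving out libraries. The fit and the rule were run on simulated data as a check of the code. The simulated data for the rule held counting error only, so they do not show how it behaves at the spread of these libraries. Transcripts given library by library are the 3 with the largest ratio and the 3 most abundant of each class, identifiers being printed for the off and the most abundant transcript. Same-numbered libraries are not stated to be paired.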

Additional observations from a re-analysis of the deposited data

Results flagged for a closer look

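Single libraries were compared with the rest of their region by Dixon's ratio, the distance to the closest other value over the whole range of the 4, with a 95% critical value of 0.829. Of 27 groups tested 2 exceeded it, where chance gives about 1 in 20. ENSDART00000105286.5, the only transcript off in lateral ectoderm, stood at 5.37 CPM in animal replicate 2 and between 20.8 and 22.5 CPM in the other animal libraries. The transcript of 1411 nucleotides stood at 3.36 CPM in lateral replicate 3, which is 7 reads, and at 0 in the other lateral libraries. With 3 values at 0, any reads in the remaining library give the highest possible ratio.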

How the results depend on the processing

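The rule gave 47 transcripts, 45 with TMM scaled CPM, 44 with DESeq2 size factors and 39 with TPM, which shared 45, 44 and 29 with the 47. The 18 lost with TPM were below 10 TPM. It gave 76 with a mean animal CPM of at least 5, 33 with at least 20, 91 with a ratio of 1.5, 24 with a ratio of 3 and 15 with whole-number transcripts only. Leaving out 1 library, which eases complete separation, gave 62 to 90 transcripts, with 71 without lateral replicate 1, 78, 77 and 82 without animal replicates 2, 4 and 1, and 81 and 90 without lateral replicates 2 and 3. Between 42 and 46 of the 47 were kept. Leaving out both lateral libraries 1 and 4 gave 111, of which 36 were among the 47. The number of off transcripts was 1 at limits of 0.5 and 2 CPM and at 3 reads or fewer, and from 1 to 2 when a lateral library was left out, with 2 without replicate 1 or 3. In the test of all transcripts 9 were called higher in animal ectoderm, 9 of them among the 47. These counts were 9 and 9 with RLE scaling, 8 and 8 with limma voom, 113 and 30 with no filter on low counts, 33 and 21 with DESeq2, and 5 and 2 without lateral libraries 1 and 4. Leaving out 1 library gave 3 to 7 in all and 2 to 6 among the 47, and kept 2 to 5 of the original 9. Without lateral libraries 1 and 4, 1 of the original 9 was kept. With the replicate block 1 transcript was called in all and 1 among the 47. Deviations of same-numbered libraries from their region's mean correlated at -0.03 to 0.04 over all tested transcripts (other pairs, -0.12 to 0.13). The best match had the same number for 0 of 8 libraries. With so few pairs, and with counting error in the values, these correlations cannot settle whether the libraries were paired. The cause of the changes in the counts above was not tested. The ratios of the 13 transcripts given library by library moved by less than the SD between animal libraries in 120 of 129 alternatives and by more in 9. Leaving out 1 of 4 animal libraries cannot move their mean by that SD, so those alternatives counted as unmoved in advance. Among them was the transcript of 422 nucleotides, whose ratio went from 10.5 to 5.64 without animal replicate 4. TMM and TPM use the same reads, so the 120 do not show that the ratios are stable. There were 0 reversals, which complete separation makes hardly possible. The summed level had a ratio of 3.26, with 2.75 to 3.504 over alternatives chosen after seeing the data.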
